A study of Mus musculus with 9 samples.

Results

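Fibroblasts build connective tissue: they secrete collagens, proteoglycans and fibrillins, crosslink them, and carry an actin contractile apparatus that is raised when they adhere and spread. Mouse embryonic fibroblasts are also the usual feeder layer under epiblast stem cells, cells grown from the mouse epiblast, and their RNA enters a library whenever the layer is lysed together with the colonies. The 9 genes described here were chosen by symbol as fibroblast genes other than collagens, and all 9 were found among the 52609 genes of the series. By role they are the proteoglycans Dcn and Lum, the matricellular protein gene Postn, the matrix-assembly genes Lox and Fbn1, the surface genes Thy1 and Pdgfrb, and the contractile genes Acta2 and Tagln. Such genes are not exclusive to feeders, since mesoderm, smooth muscle and other spread cells express several of them. In whole cultures, fewer cells of a type and less RNA per cell cannot be told apart.

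Transcripts were measured by RNA sequencing in 4 lines, all derived from dissected epiblast, grown on inactivated embryonic fibroblasts and all given FGF2 (10 ng/mL) plus Activin A (20 ng/mL). They were a line without Dkk1, a secreted Wnt antagonist (Dkk1_KO, n = 3), a Wnt-inhibited line in medium with IWP2, which blocks Wnt secretion, at 5 µM (IWP2, n = 2), a line from which IWP2 was withdrawn after derivation (IWP2_removed, n = 2), and a line labelled as control, without inhibitor (control, n = 2). Each group is 1 line, so a treatment or genotype cannot be told apart from the line that carries it. The labels do not say whether libraries of a group came from separate cultures, and p-values measure the spread between these libraries, which may be technical.

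The libraries held 10849490 to 17892751 estimated reads, of which 8291 to 21398 fell on the 9 genes. Dkk1_KO libraries stood apart from the rest. Replicates of that line differed by little more than counting error (chi-square per degree of freedom 1.79 to 2.27, against 32.9 to 94.4 between replicates of the other lines). The summed level of 10 epiblast markers was 259 to 286 CPM (counts scaled to library size, with TMM factors) in Dkk1_KO, against 1722 to 1907 CPM in control, with 8 of the 10 gene means lower and those of Utf1 and Dppa5a higher. That of 9 trophoblast markers was 2057 to 2070 CPM in Dkk1_KO, against 26.0 to 83.5 CPM in control, with all 9 higher. The label of an epiblast stem cell line is thus not borne out by these markers in Dkk1_KO, where Pou5f1 averaged 1.39 CPM against 457.5 CPM in control. Sex-linked genes differed too, with Xist at 337 CPM in Dkk1_KO and 16.9 CPM in control and Ddx3y at 2.02 CPM in Dkk1_KO and 100.4 CPM in control.

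Dcn and Lum are neighbours on chromosome 10 of GRCm38 and lie on the same strand. Dcn (ENSMUSG00000019929.16) occupies 97479609 to 97518143 and Lum (ENSMUSG00000036446.5) 97565128 to 97572703, with 46984 bp and 0 annotated genes between them. Postn lies on chromosome 3 (54361109 to 54391037, plus strand), Fbn1 on chromosome 2 (125300594 to 125507993, minus strand) and Acta2 on chromosome 19 (34241090 to 34255590, minus strand). Thy1 (44043384 to 44048579, plus strand) and Tagln (45929619 to 45936058, minus strand) are both on chromosome 9.

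Start-site sequences are shown for 3 of the 9 genes, and those of the other genes are not shown. These 3 parted ways in the data. Acta2 and Fbn1 were lower in libraries with the letter C than in those with B, while Postn was not. Acta2 is a textbook target of the serum response factor, which binds CArG boxes, a CC and a GG around a run of A and T. Each window (RefSeq, GRCm38.p6) runs 5′ to 3′ from 250 bases before the start to 50 after it. Capitals mark the pattern searched for, a CC and a GG with 6 bases between them of which at least 5 were A or T. The pattern is its own reverse complement, so both strands were read at once. Of the windows that RefSeq gives for Postn, the one at the annotated gene start is printed.
Acta2, minus strand, chr19:34255324-34255623: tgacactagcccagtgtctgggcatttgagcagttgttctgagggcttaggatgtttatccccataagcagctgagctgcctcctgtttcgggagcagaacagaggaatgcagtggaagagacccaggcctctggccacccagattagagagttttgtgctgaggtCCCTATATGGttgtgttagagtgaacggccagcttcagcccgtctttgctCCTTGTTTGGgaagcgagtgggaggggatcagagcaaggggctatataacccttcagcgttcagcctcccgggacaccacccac
Fbn1, minus strand, chr2:125506389-125506688: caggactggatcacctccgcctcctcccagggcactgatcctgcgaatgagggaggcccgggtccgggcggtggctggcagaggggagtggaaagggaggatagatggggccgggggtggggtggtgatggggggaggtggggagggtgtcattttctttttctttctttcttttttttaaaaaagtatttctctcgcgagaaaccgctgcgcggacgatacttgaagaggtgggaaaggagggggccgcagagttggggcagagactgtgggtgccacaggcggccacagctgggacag
Postn, plus strand, chr3:54360857-54361156: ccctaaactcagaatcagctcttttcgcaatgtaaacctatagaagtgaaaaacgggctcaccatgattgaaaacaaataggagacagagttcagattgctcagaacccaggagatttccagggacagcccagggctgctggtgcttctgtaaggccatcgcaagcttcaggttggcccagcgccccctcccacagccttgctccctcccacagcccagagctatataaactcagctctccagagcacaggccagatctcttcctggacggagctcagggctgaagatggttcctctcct
The Acta2 window held 2 such matches, CCCTATATGG beginning at -84 and CCTTGTTTGG at -34 relative to the start. The Fbn1 and Postn windows held 0. The Fbn1 window lies wholly within the annotated gene and does not reach its annotated start (125507993, minus strand). Of 32851 start windows of this length 9.98% held at least 1 match and 0.822% held 2 or more. A match is a description of letters and was not tested as a binding site, and its absence says nothing of the factor outside the window.

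Read per length, the contractile genes had the highest means in each line. Deposited TPM (reads scaled to transcript length and library size) summed over transcripts gave Tagln 153 ± 8.67 TPM in Dkk1_KO (SD, n = 3), 242 ± 171 in IWP2, 322 ± 240.1 in IWP2_removed and 507.5 ± 330 in control (n = 2 each). Acta2 followed at 55.7 ± 1.48, 72.8 ± 29.0, 91.4 ± 54.1 and 155 ± 89.3 TPM in the same order of lines. In control the order went on with Thy1 (64.8 TPM), Postn (58.6), Dcn (38.9), Lox (36.7), Fbn1 (16.3), Lum (9.28) and Pdgfrb (6.15). In library C of IWP2_removed Acta2 (53.2 TPM) lay below Thy1 (77.0 TPM) and Postn (54.0 TPM). Of the 8 neighbouring pairs of the control order only Dcn and Lox had overlapping ranges (33.5 to 44.4 TPM for Dcn, 34.4 to 39.0 TPM for Lox). In Dkk1_KO Lox (20.7 to 22.8 TPM) stood above Postn (10.3 to 12.03 TPM), and Dcn (2.27 TPM) and Lum (0.807 TPM) came last, below Pdgfrb (3.61 TPM).

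The height of Tagln in TPM rests on a short transcript. Tagln-202, a coding model of 369 bases, took 24.3% of the Tagln reads of all 9 libraries and 77.5% of the summed Tagln TPM, while the full-length Tagln-201 of 1595 bases took 71.1% of the reads and 19.8% of the TPM. Thy1 is alike, with 68.8% of reads but 23.4% of TPM on Thy1-201, and the remainder mostly on models of 446 to 460 bases. Postn-206, a model of 655 bases, took 9.43% of Postn reads and 41.6% of TPM. Acta2 and Lum each have a single transcript in the table, and Fbn1 and Dcn had 99.5% and 97.6% of their reads on 1 transcript. Reckoned instead as CPM per kb of the transcript with most reads, Acta2 came first in each line (80.8 in Dkk1_KO, 95.04 in IWP2, 119 in IWP2_removed, 185 in control) and Tagln second (61.4, 90.9, 116 and 159.5 in the same order of lines). By that measure Thy1 was the sixth in control, at 26.9 CPM per kb, below Postn (50.2), Dcn (48.6) and Lox (46.0). Tagln-201 held 73.8% of Tagln reads in Dkk1_KO, 72.0% in IWP2, 70.4% in IWP2_removed and 69.4% in control. Estimated shares differed more for other members, with Postn-203 at 13.1% of Postn reads in Dkk1_KO, 18.9% in IWP2, 10.1% in IWP2_removed and 3.10% in control, and Lox-202 at 66.0%, 76.7%, 72.8% and 69.3% of Lox reads in the same order of lines.

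**Figure D1:**
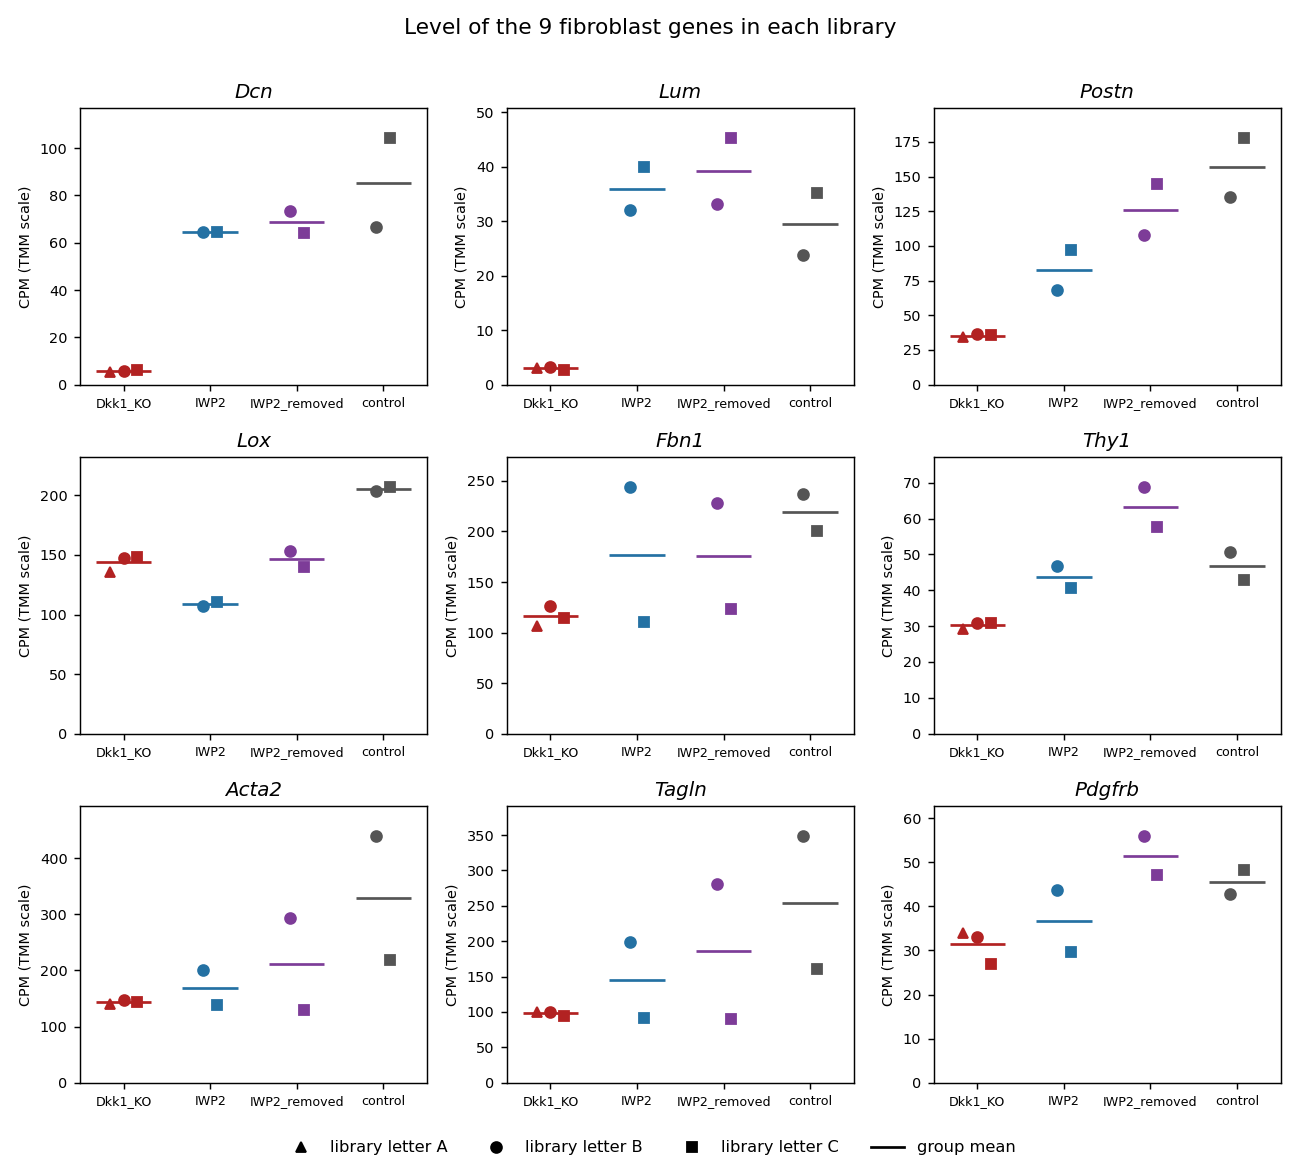
Level of each of the 9 genes in every library, in CPM on a linear axis from 0, with lines on the x axis, 1 symbol per library (shape gives the letter A, B or C) and a bar at the mean of the line. All 3 Dkk1_KO libraries lie below both control libraries for each gene, and in Acta2, Tagln and Fbn1 the circles (letter B) stand above the squares (letter C) in the other 3 lines.

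Dkk1_KO was set against control to ask what differed in a line lacking Dkk1 in the same medium. All 9 genes were lower in every Dkk1_KO library than in either control library, and 7 of 9 passed the test as lower and 0 as higher (edgeR quasi-likelihood, adjusted p below 0.05 over 18096 genes). DESeq2 called 8 lower and 0 higher. Of all genes tested 44.3% were called, 23% lower and 21.3% higher, and DESeq2 called 4081 of them lower and 4033 higher. How many of all genes had every Dkk1_KO library below both control libraries was not counted. The median log2 fold change of the 9 was -1.19, against -0.03 over all genes. Sizes were unequal: group means ran from 6.76% of control for Dcn to 70.0% for Lox, a 10.3-fold range.

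Secreted small proteoglycans fell most. Dcn encodes decorin, which binds collagen fibrils and growth factors of the TGF-beta family. Its level was 5.33, 5.92 and 6.08 CPM in the Dkk1_KO libraries, against 66.6 and 104 CPM in control. The groups were far apart, and the change was -3.89 ± 0.20 (log2, SE; adjusted p = 3.76e-06). Lum encodes lumican, a related keratan sulfate proteoglycan that spaces collagen fibrils. It stood at 3.01, 3.27 and 2.69 CPM in Dkk1_KO, against 23.9 and 35.2 CPM in control, a change of -3.31 ± 0.23 (adjusted p = 1.65e-05). These levels rest on 76 to 86 Dcn reads and 38 to 43 Lum reads per Dkk1_KO library.

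Postn encodes periostin, a matricellular protein of collagen-rich tissue and a TGF-beta target. It measured 34.1, 36.2 and 35.6 CPM in Dkk1_KO, against 136 and 178 CPM in control (log2 change -2.15 ± 0.19, adjusted p = 5.85e-05). The libraries of the 2 lines did not overlap, and the mean was 22.5% of control. Dcn, Lum and Postn were called under all 15 alternatives tried, with the 3 Dkk1_KO libraries summed to 1 among them. In that setting they were the 3 members still called.

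Matrix-assembly and surface genes were lower by less. Lox (chromosome 18, like Pdgfrb), the lysyl oxidase that starts crosslinking of collagen and elastin, stood at 136, 147 and 148 CPM in Dkk1_KO, against 204 and 207 CPM in control (-0.52 ± 0.10, adjusted p = 0.00377). Fbn1, the fibrillin of extracellular microfibrils, had 107, 126 and 115 CPM in Dkk1_KO and 237 and 200.3 CPM in control. Its change of -0.92 ± 0.34 did not pass (adjusted p = 0.0553; range over its alternatives 0.000184 to 0.322), although the libraries did not overlap. Thy1, a GPI-anchored surface glycoprotein used to sort fibroblasts, had 29.3, 30.9 and 30.8 CPM in Dkk1_KO, against 50.6 and 43.0 CPM in control (-0.62 ± 0.14, adjusted p = 0.00605; range over its alternatives 0.00143 to 0.173). Its call was lost without control replicate 1 (adjusted p = 0.0515). Pdgfrb, a receptor tyrosine kinase for PDGF-B on pericytes and fibroblasts, was at 34.1, 33.0 and 27.0 CPM in Dkk1_KO and 42.7 and 48.2 CPM in control. It passed narrowly (-0.54 ± 0.19, adjusted p = 0.0499; range over its alternatives 0.00912 to 0.325) and was called in 4 of 15 alternatives.

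Contractile genes were also lower in Dkk1_KO, but the control libraries were themselves far apart. Acta2, the smooth muscle actin of myofibroblasts, measured 140.2, 147 and 144 CPM in Dkk1_KO, against 439 and 218 CPM in control (-1.19 ± 0.37, adjusted p = 0.0296). Without control replicate 1 the change was -0.60 and the call was lost (adjusted p = 0.30; range over its alternatives 2.47e-06 to 0.30), and it was also lost without any 1 of the Dkk1_KO libraries (0.0751 to 0.0821). Tagln encodes transgelin, an actin-binding protein of smooth muscle and spread fibroblasts. It had 99.7, 99.8 and 94.2 CPM in Dkk1_KO and 349 and 160.2 CPM in control, a change of -1.38 ± 0.50 that did not pass (adjusted p = 0.053; range over its alternatives 1.76e-06 to 0.402).

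The sum of the 9 genes was 276 to 303.5 TPM in Dkk1_KO, against 595 to 1191 TPM in control, and its mean was 32.2% of control. Acta2 and Tagln made up 71.7% to 72.9% of that sum in Dkk1_KO and 61.5% to 80.5% in control. The other 7 genes summed to 74.9 to 83.8 TPM in Dkk1_KO, against 229 to 232 TPM in control, a mean of 34.5%. In CPM the mean of the sum of the 9 was 44.3% of control. A single share of feeder RNA relative to control cannot be read from these genes. By CPM the same libraries gave 6.76% by Dcn, 22.5% by Postn, 43.8% by Acta2 and 70.0% by Lox. Other marker lists moved with the same comparison, besides the epiblast and trophoblast markers given above. Parietal endoderm markers summed to 47.8 to 49.9 CPM in Dkk1_KO, against 88.2 to 99.3 CPM in control, and early mesoderm markers to 15.3 to 17.6 CPM in Dkk1_KO, against 57.5 to 116 CPM in control. Both lists split: in the first Foxa2 (2.75 CPM in Dkk1_KO, 49.2 in control) and Thbd were lower and Gata4 (19.5 CPM in Dkk1_KO, 1.41 in control), Gata6 and Sox7 higher, and in the second T (2.97 CPM in Dkk1_KO, 78.0 in control) was lower and Kdr (7.66 CPM in Dkk1_KO, 3.90 in control), Hand2 and Mesp2 higher. Blood markers summed to 15.4 to 20.0 CPM in Dkk1_KO, against 6.47 to 15.0 CPM in control. Endothelial markers summed to 6.72 to 7.08 CPM in Dkk1_KO, against 3.92 to 4.10 CPM in control, and neural crest markers to 23.0 to 27.8 CPM in Dkk1_KO, against 33.4 to 42.8 CPM in control, again with members in both directions (Cdh5 and Sox10 were higher in Dkk1_KO, Tek and Foxd3 lower). Heart and smooth muscle markers overlapped in their sum, at 9.87 to 11.8 CPM in Dkk1_KO and 9.39 to 18.2 CPM in control. This list split as well by mean CPM. Actc1 (0.119 CPM in Dkk1_KO, 7.90 in control), Myh7, Myl7, Myocd and Myh11 were lower. Tnnt2 (4.00 CPM in Dkk1_KO, 0.529 in control), Myh6 and Nkx2-5 were higher. The part of these cells in the values of the 9 genes was not tested.

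**Figure D2:**
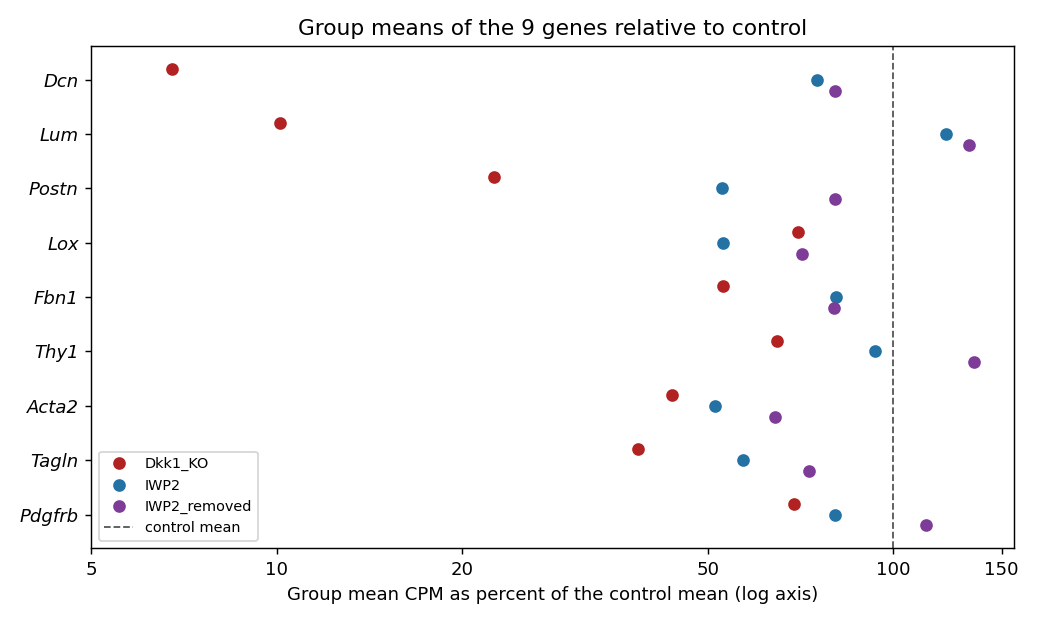
Mean CPM of each gene in Dkk1_KO, IWP2 and IWP2_removed as a percent of the control mean, on a log axis, with 1 point per gene and line and a dashed line at control. Dkk1_KO points run from 6.76% (Dcn) to 70.0% (Lox), while IWP2 points run from 51.5% to 122% and IWP2_removed points from 64.3% to 135%.

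Related matrix genes were set beside the 9, and their counts are to be read against the 44.3% of all genes called in this comparison, 23% lower and 21.3% higher. Over all 18096 genes 4885 were lower and 4499 higher at an unadjusted p under 0.05, and DESeq2 called 4081 lower and 4033 higher. Of 19 elastic fibre and lysyl oxidase genes 11 fell and 1 rose in Dkk1_KO, with a median log2 fold change of -0.89. Mfap2 and Mfap4, microfibril-associated proteins that share fibres with fibrillin, averaged 2.99 ± 0.47 and 2.85 ± 0.66 CPM in Dkk1_KO (SD, n = 3), against 54.8 ± 8.89 and 42.7 ± 0.14 CPM in control (SD, n = 2), changes of -4.20 ± 0.24 and -3.90 ± 0.19. Of 7 other small leucine-rich proteoglycans tested 3 fell and 0 rose (median -1.14; at an unadjusted p under 0.05, 4 fell and 0 rose, and DESeq2 called 3 lower and 0 higher). Those that fell included Fmod, the fibril-binding fibromodulin, at 2.53 ± 0.41 CPM in Dkk1_KO and 19.2 ± 4.69 CPM in control (adjusted p = 8.15e-05). Bgn, the most abundant of the 7, did not pass, at 450 ± 10.0 CPM in Dkk1_KO and 470 ± 137 CPM in control (-0.06 ± 0.28, adjusted p = 0.876). Of 12 collagen chains 5 fell and 0 rose (median -0.52; unadjusted 7 and 0, DESeq2 5 and 0), with the fibril collagen Col3a1 at 176 ± 3.06 CPM in Dkk1_KO and 695 ± 237 CPM in control.

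Contractile and PDGF genes did not show one direction. Among 19 actin contractile genes and regulators 3 fell and 3 rose in Dkk1_KO (median 0.15). The actin crosslinker Flna fell, at 379.6 ± 10.2 CPM in Dkk1_KO and 1175 ± 342 CPM in control (-1.63 ± 0.32, adjusted p = 0.00338). The PDGF and pericyte list had 3 lower and 4 higher of 10 tested (median 0.21). Its ligand genes parted: Pdgfb, which encodes a ligand of Pdgfrb, rose (38.9 ± 1.38 CPM in Dkk1_KO against 6.96 ± 4.13 CPM in control, 2.50 ± 0.55, adjusted p = 0.0063) and Pdgfc fell (7.74 ± 0.71 CPM in Dkk1_KO against 40.6 ± 14.2 CPM in control, -2.39 ± 0.43, adjusted p = 0.00243). Of 13 matricellular genes 6 fell and 1 rose, and of 14 mesenchymal transcription factors 5 fell and 3 rose. Vcan, a large hyaluronan-binding proteoglycan, fell to 34.4 ± 1.10 CPM in Dkk1_KO, against 435 ± 153 CPM in control, whereas Ecm1 rose to 118 ± 3.02 CPM in Dkk1_KO, against 28.1 ± 11.6 CPM in control. Meox1 and Foxf2, mesodermal transcription factors, were among the factors that fell, at 0.121 and 1.15 CPM in Dkk1_KO and 9.27 and 11.6 CPM in control.

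**Figure D3:**
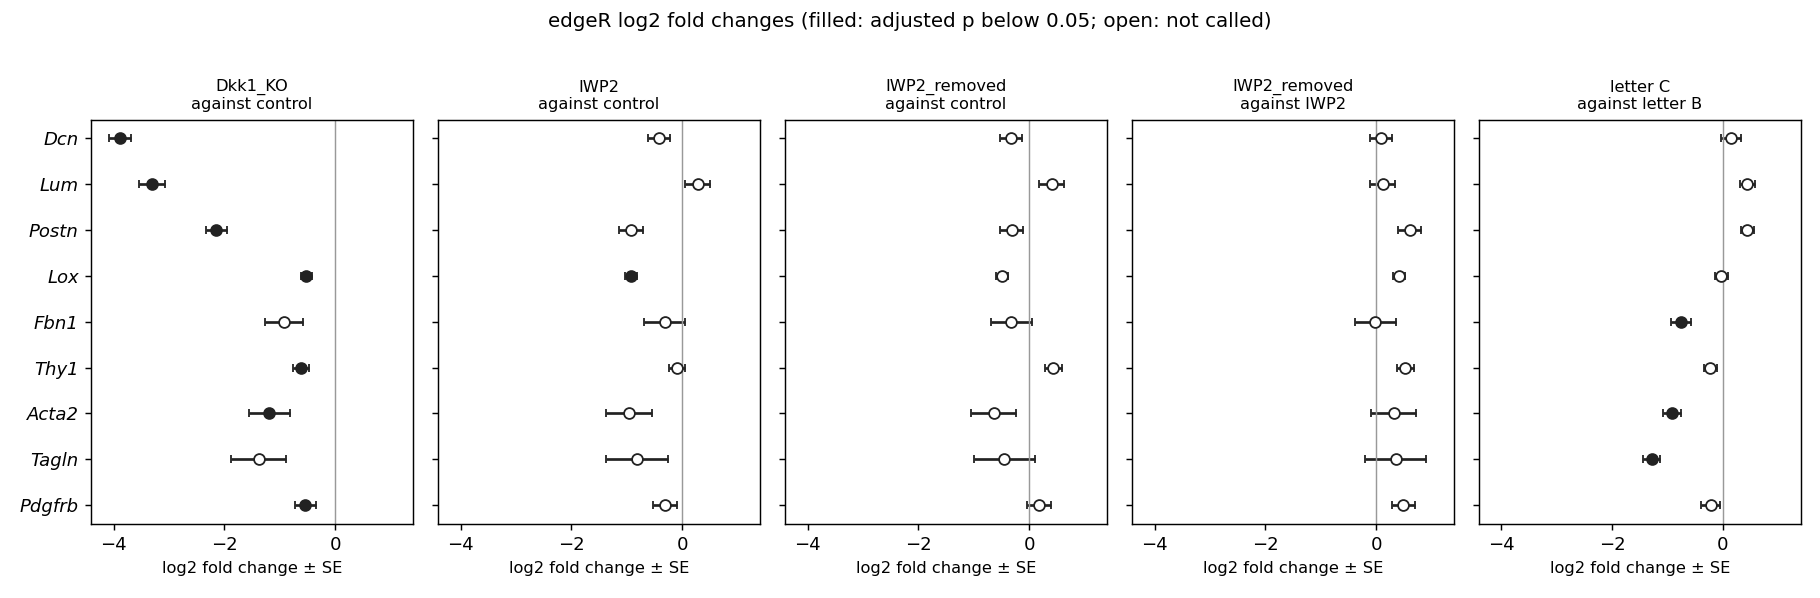
Log2 fold changes of the 9 genes from edgeR in the 4 comparisons of lines and for letter C against letter B, with the standard error as a horizontal bar; filled points passed an adjusted p below 0.05 and open points did not. Dcn, Lum and Postn lie furthest left in Dkk1_KO against control, Lox is the only filled point for IWP2 against control, and Tagln, Acta2 and Fbn1 are filled in the comparison of letters.

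IWP2 was set against control to ask what differed under a block of Wnt secretion. Of the 9 genes 1 passed as lower and 0 as higher with edgeR (3 at an unadjusted p under 0.05, all lower; DESeq2 called 2 lower and 0 higher). Of all genes 2.19% were called, 0.917% lower and 1.27% higher. An unadjusted p under 0.05 was found for 1320 of 18096 genes as lower and 1652 as higher. DESeq2 called 421 of all genes lower and 646 higher. Lox was the gene that passed, at 107 and 111 CPM in IWP2, against 204 and 207 CPM in control (-0.92 ± 0.11, adjusted p = 0.00831; range over its alternatives 1.76e-11 to 0.335). The groups did not overlap, and the IWP2 mean was 53.0% of control. Lox lost its call without control replicate 2 (adjusted p = 0.0547), with only these 2 groups in the fit (0.335) and with the 6 libraries without Dkk1_KO (0.157), while its log2 change stayed between -1.05 and -0.89 in all 14 alternatives.

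Postn had 68.3 and 97.1 CPM in IWP2, against 136 and 178 CPM in control (-0.92 ± 0.21, adjusted p = 0.069). The libraries did not overlap, and Postn was called in 5 of 14 alternatives (adjusted p 0.0013 to 0.461), both fits with a replicate block among them. Acta2 stood at 201 and 138 CPM in IWP2 (-0.96 ± 0.42 against control, adjusted p = 0.30) and Tagln at 198 and 91.6 CPM (-0.81 ± 0.56, adjusted p = 0.541), with Acta2 below and Tagln overlapping the control libraries. By TPM Acta2 overlapped control too (52.2 to 93.3 in IWP2, 91.6 to 218 in control). Dcn was at 64.5 and 64.3 CPM in IWP2 (-0.41 ± 0.20, adjusted p = 0.367), and Lum at 32.1 and 39.9 CPM, on the higher side of control (0.28 ± 0.23, adjusted p = 0.623). Fbn1 (-0.31 ± 0.37), Thy1 (-0.09 ± 0.15) and Pdgfrb (-0.31 ± 0.21) did not pass either. The sum of the 7 genes other than Acta2 and Tagln was 142 and 182.5 TPM in IWP2, against 229 and 232 TPM in control.

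Of 94 genes tested in the related lists, 1 passed in each direction in IWP2 against control (at an unadjusted p under 0.05, 2 higher and 16 lower; DESeq2 called 2 higher and 7 lower). The edgeR counts are near the share over all genes, of which 2.19% were called, 0.917% lower and 1.27% higher. By unadjusted p and by DESeq2 the lists held a larger share of lower genes than all 18096 genes did (1320 and 421 lower). Their share of higher genes was smaller (1652 and 646 higher over all genes). The fibril-associated collagen Col12a1 was lower, with 67.5 ± 24.0 CPM in the IWP2 line, against 165 ± 18.1 CPM in control (-1.29 ± 0.24, adjusted p = 0.034). Mfap4 was higher, with 105.5 ± 10.5 CPM in the IWP2 line, against 42.7 ± 0.14 CPM in control (1.31 ± 0.19, adjusted p = 0.0154). The control libraries are shared by all comparisons with control.

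IWP2_removed against control compared a line freed of IWP2 with one labelled as without inhibitor. With edgeR 0 of 9 genes passed, where 1.25% of all genes were called, 0.586% lower and 0.669% higher. An unadjusted p under 0.05 was found for 2 of the 9, and 1 was called lower and 0 higher by DESeq2. Over all 18096 genes 1115 were higher and 1039 lower at that unadjusted level, and DESeq2 called 345 higher and 312 lower. Lox again lay below control, at 153 and 139.5 CPM in IWP2_removed, against 204 and 207 CPM in control (-0.49 ± 0.11, adjusted p = 0.0931), and was the gene that DESeq2 called (adjusted p = 0.00247; range over its alternatives 0.00247 to 0.568). Thy1 lay above control, at 68.8 and 57.7 CPM in IWP2_removed, against 50.6 and 43.0 CPM in control (0.44 ± 0.15, adjusted p = 0.269). Neither gene overlapped control. Dcn (73.5 and 63.9 CPM), Lum (33.2 and 45.3 CPM) and Postn (108 and 144 CPM) in IWP2_removed overlapped control, as did Fbn1 (228 and 123 CPM), Acta2 (294 and 129 CPM), Tagln (281 and 90.4 CPM) and Pdgfrb (55.9 and 47.0 CPM). By TPM Dcn (26.7 to 32.9 in IWP2_removed, 33.5 to 44.4 in control) did not overlap. Nor did Postn by TPM (40.3 to 54.0 in IWP2_removed, 58.6 to 58.7 in control). The 7 genes other than Acta2 and Tagln summed to 225 and 207 TPM in IWP2_removed, 93.6% of the control mean.

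Set against IWP2 itself, IWP2_removed had 0 of 9 genes called, 4 at an unadjusted p under 0.05 and, by DESeq2, 1 higher. Point estimates were above 0 for 8 of 9, led by Postn (0.61 ± 0.21, adjusted p = 0.37), Thy1 (0.53 ± 0.15, 0.246), Pdgfrb (0.49 ± 0.21, 0.507) and Lox (0.42 ± 0.11, 0.223), and the median was 0.36 against -0.008 over all genes. Lox, the gene called by DESeq2 (adjusted p = 0.0315; range over its alternatives 0.0315 to 1), did not overlap between these lines. Of 18096 genes 11 were called in this comparison, 0.0608%, of which 0.0387% were higher and 0.0221% lower. In the related lists 0 of 94 genes passed with edgeR in either of these comparisons. At an unadjusted p under 0.05, 1 was higher and 10 lower in IWP2_removed against control, where DESeq2 called 0 higher and 5 lower. Over all 18096 genes that comparison had 1115 higher and 1039 lower at an unadjusted p under 0.05. DESeq2 called 345 of all genes higher and 312 lower in it. Against IWP2 6 genes of the lists were higher and 4 lower at that unadjusted level, and DESeq2 called 0 higher and 2 lower.

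The letters B and C in the submitters' library names occur once each in IWP2, IWP2_removed and control, and the labels do not say what they stand for. Over these 6 libraries, with line as a term, Tagln, Acta2 and Fbn1 were lower in letter C, and 0 of 9 genes passed as higher. With edgeR 7.66% of 17214 genes were called, 4.56% lower and 3.1% higher. At an unadjusted p under 0.05, 3 members were lower and 2 higher, and DESeq2 called 3 lower and 1 higher. Over all 17214 genes 2610 were lower and 2381 higher at that unadjusted level, and DESeq2 called 1026 lower and 769 higher.

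Tagln had 91.6 CPM in C and 198 CPM in B of IWP2, 90.4 and 281 CPM in C and B of IWP2_removed, and 160.2 and 349 CPM in C and B of control. Library C thus held 46.2%, 32.1% and 45.9% of the level of library B in the 3 lines, a change of -1.29 ± 0.15 (adjusted p = 0.00682). Acta2 in C was 68.6%, 44.0% and 49.6% of B in the same order of lines (-0.92 ± 0.16, adjusted p = 0.0204), and Fbn1 45.2%, 54.1% and 84.4% (-0.76 ± 0.18, adjusted p = 0.0497). Without the IWP2_removed line the call of Acta2 was lost (adjusted p = 0.121; range over its alternatives 3.79e-06 to 0.177), as was that of Fbn1 (adjusted p = 0.185; range over its alternatives 0.000829 to 0.185).

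Dcn, Lum, Postn and Lox did not pass in this comparison. By CPM Postn was higher in C in all 3 lines, at 142% of B in IWP2, 134% in IWP2_removed and 131% in control (0.44 ± 0.12, adjusted p = 0.0629), and Lum likewise at 124%, 136% and 148% (0.44 ± 0.13, adjusted p = 0.0825). Dcn in C was 99.7% of B in IWP2, 86.9% in IWP2_removed and 157% in control (0.14 ± 0.18, adjusted p = 0.622). Lox lay between 91.2% and 103% (-0.03 ± 0.12, adjusted p = 0.906). Thy1 was lower in C in all 3 lines, between 83.9% and 86.7% of B, without passing (adjusted p = 0.239), and Pdgfrb (-0.22 ± 0.17) differed in direction between lines. These percentages are by CPM, and TPM differed in part. In TPM Postn was level in control (58.6 in C, 58.7 in B) and Lum nearly so in IWP2 (10.5 in C, 10.4 in B). Pdgfrb was lower in C in all 3 lines by TPM. The summed TPM of all 9 genes in C was 49.4%, 48.7% and 49.98% of B in IWP2, IWP2_removed and control, whereas that of the 7 genes without Acta2 and Tagln was 77.9%, 91.8% and 98.7%. In CPM the letters lay closer, with sums of the 9 genes of 722, 841 and 1194 in C and 1006, 1295 and 1549 in B of the same lines.

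In Dkk1_KO the letters B and C did not part these genes: Tagln in C was 94.4% of B, Acta2 97.96% and Fbn1 91.1%. The difference of the letter effect between Dkk1_KO and the other 3 lines, a test added after the data were seen, was 1.20 ± 0.30 (log2) for Tagln (unadjusted p = 0.00397, adjusted p = 0.47) and 0.88 ± 0.31 for Acta2 (unadjusted p = 0.0231, adjusted p = 0.72), and 0 of 19137 genes passed it with edgeR. Of the 9 members 2 had an unadjusted p under 0.05 in it. With the Dkk1_KO libraries B and C in the fit, 0 of 17970 genes were called between letters, the 9 members included. Of the members 4 had an unadjusted p under 0.05. For neither test was the number of all genes under that level counted.

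**Figure D4:**
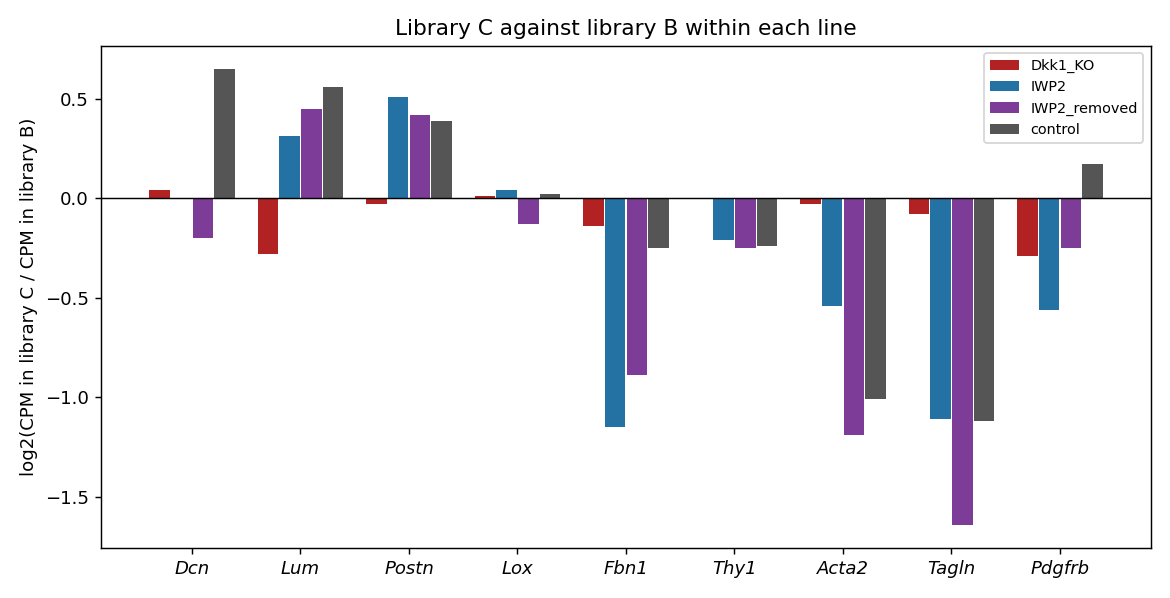
Log2 ratio of CPM in library C to CPM in library B within each line, 1 bar per line for each gene, with bars drawn from 0. Tagln bars are -0.08 in Dkk1_KO, -1.11 in IWP2, -1.64 in IWP2_removed and -1.12 in control, while Postn bars are -0.03, 0.51, 0.42 and 0.39 in the same order of lines.

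Other actin and matricellular genes were also lower in C. The counts below are to be read against the 7.66% of all genes called between letters, 4.56% lower and 3.1% higher. Counts at an unadjusted p under 0.05 or by DESeq2 stand against the counts over all genes given above for the letters. Among 19 actin contractile genes and regulators 8 fell and 1 rose in C (median -0.73, against -0.001 over all genes). Examples were Cald1, the actin-binding caldesmon, at 227 ± 107 CPM in C and 452 ± 92.8 CPM in B (SD, n = 3 lines), and the tropomyosin Tpm1 at 349 ± 143 CPM in C and 699.7 ± 148 CPM in B. Of 13 matricellular genes 8 fell and 0 rose (median -1.20; at an unadjusted p under 0.05, 9 fell and 0 rose, as with DESeq2). They included Thbs1, a thrombospondin, at 154 ± 105 CPM in C and 501 ± 79.2 CPM in B, and S100a4, a calcium-binding protein of motile fibroblasts, at 18.3 ± 2.20 CPM in C and 67.3 ± 10.4 CPM in B. Of 12 collagens 2 fell and 1 rose, and of 7 small proteoglycans 1 fell and 1 rose. The proteoglycan genes were Bgn (biglycan), at 347 ± 24.7 CPM in C and 549 ± 100.3 CPM in B, and Prelp, at 10.6 ± 4.19 CPM in C and 5.71 ± 1.85 CPM in B, whose adjusted p of 0.049998 lay at the threshold. Of the elastic fibre list 4 of 19 fell and 0 rose (unadjusted 6 and 1, DESeq2 5 and 0), Fbln2, a fibulin of elastic fibres, among them at 201 ± 58.0 CPM in C and 636 ± 84.5 CPM in B. Of the PDGF and pericyte list 5 of 10 fell and 0 rose (unadjusted 6 and 0, DESeq2 4 and 0), and of the mesenchymal transcription factors 4 of 14 fell and 0 rose (unadjusted 8 and 0, DESeq2 5 and 0).

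Markers of other cells moved with the letter as well, and their part in these results was not tested. The epiblast markers summed to 3679, 2664 and 1722 CPM in C and 1718, 2587 and 1907 CPM in B of IWP2, IWP2_removed and control, and within that list Pou5f1 was higher and Fgf5 lower in C in all 3 lines. The summed level of 6 blood markers was 3.89, 5.09 and 6.47 CPM in C and 13.2, 17.4 and 15.0 CPM in B of IWP2, IWP2_removed and control, carried by Ptprc, Tyrobp and Spi1, while Hbb-bt had no read in these 6 libraries. That of 8 early mesoderm markers was 31.3, 35.1 and 57.5 CPM in C and 142, 65.0 and 116 CPM in B, most of it T (brachyury). Trophoblast markers summed to 32.3, 57.7 and 26.0 CPM in C and 54.6, 116 and 83.5 CPM in B. Eomes carried that difference (28.0, 45.6 and 12.1 CPM in C and 50.6, 108 and 72.4 CPM in B), while Tfap2c was higher in C in all 3 lines. Parietal endoderm markers summed to 19.9, 37.3 and 88.2 CPM in C and 67.6, 63.0 and 99.3 CPM in B, with Foxa2 and Thbd lower in C in all 3 lines and Sox17 higher in IWP2_removed and control. Neural crest markers summed to 27.7, 23.7 and 33.4 CPM in C and 59.7, 33.2 and 42.8 CPM in B. Endothelial markers stayed between 2.39 and 4.56 CPM in all 6 libraries. Heart and smooth muscle markers summed to 26.2, 9.36 and 9.39 CPM in C and 18.1, 18.6 and 18.2 CPM in B. Actc1 was the largest part of that sum, at 19.7, 5.53 and 4.66 CPM in C and 11.4, 12.35 and 11.1 CPM in B. It was thus higher in C in IWP2 and lower in C in IWP2_removed and control. Myh11, the smooth muscle myosin, was at 0.348 to 1.18 CPM in C and 1.33 to 3.38 CPM in B. Nkx2-5 had no read in the IWP2_removed and control libraries.

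**Figure D5:**
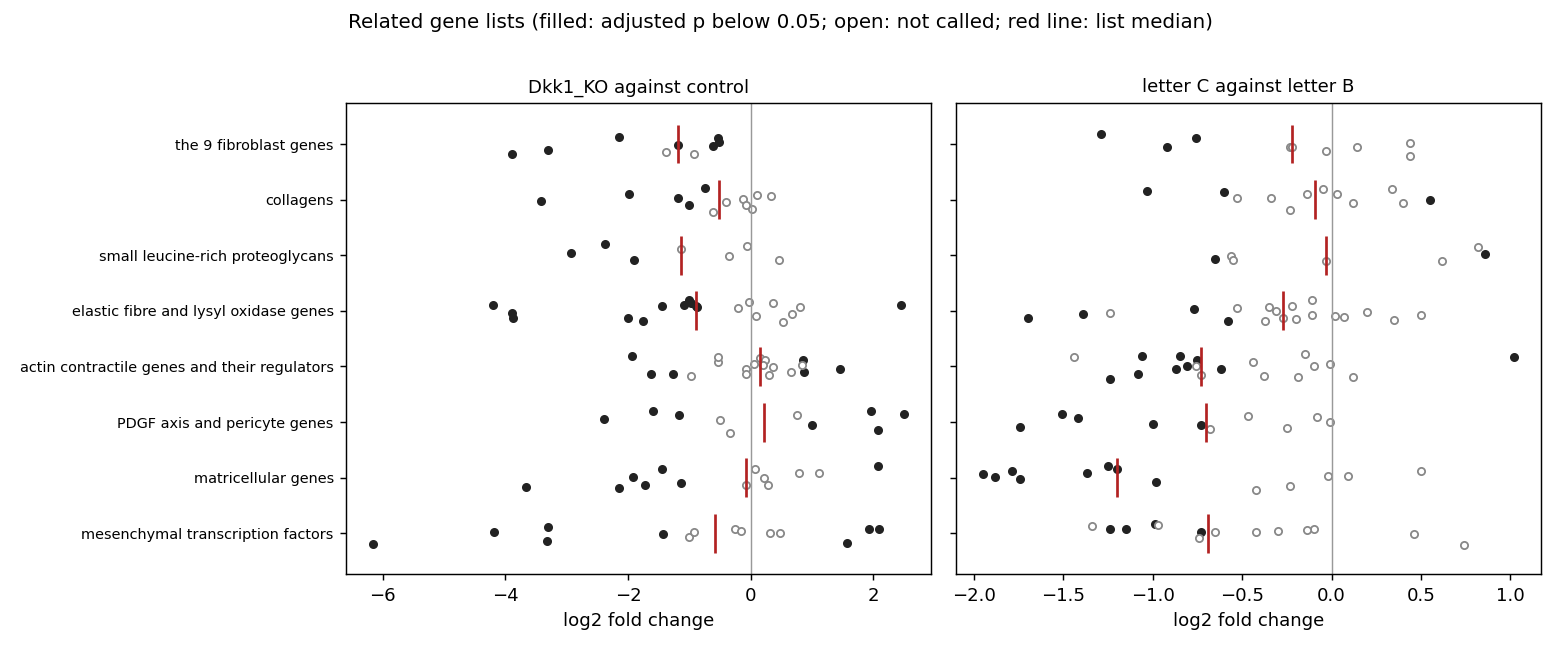
Log2 fold change of every tested gene of the 9 fibroblast genes and of 7 related lists, for Dkk1_KO against control on the left and letter C against letter B on the right; filled points passed an adjusted p below 0.05, and a red line marks the median of a list. The actin list has a median of 0.15 in Dkk1_KO against control and -0.73 in C against B, while the small proteoglycans have -1.14 and -0.03.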

How the data were processed

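Per the labels' protocols, RNA was made into stranded mRNA libraries. The deposited tables of the authors hold estimated counts and TPM per Ensembl transcript, and Salmon, DESeq2 and edgeR appear, with no version, in the submitters' processing notes. Which transcriptome build was used is not stated there. SB431542 is named in the treatment protocol, and no group analysed here is labelled with it.

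Transcripts were joined to genes by identifier with GENCODE vM21 (GRCm38): 133399 of 133618 matched, and the unmatched held 0.117% to 0.161% of reads. Estimated counts were summed per gene and rounded; libraries held 10849490 to 17892751. edgeR 4.0.16 in R 4.3.3 fitted 1 quasi-likelihood model with a mean per line over all 9 libraries (TMM scaling, filterByExpr, 18096 genes, Benjamini-Hochberg adjustment, threshold 0.05). Letters B and C were compared over 6 libraries with line as a term (17214 genes). DESeq2 1.42.0 and limma 3.58.1 on log2(TPM + 1) or log2(TPM + 0.1) served as alternatives, beside other scaling factors, no filter, left-out libraries, a replicate block, fewer groups and the Dkk1_KO libraries summed to 1. The fit was tested on simulated data. Of the related lists (7), up to 2 called genes with the largest change and a mean of at least 5 CPM in the higher group were named, or otherwise the gene with the highest mean. Bgn was named besides in Dkk1_KO against control, as the most abundant of its list. Mrtfa, Mrtfb, Ccn1 and Ccn2 were listed under older symbols. The members and lists were chosen with earlier results of these data known. Of the genes that the likeness rule picked, 1 is not reported here.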

Additional observations from a re-analysis of the deposited data

How the results depend on the processing

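Direction held best in Dkk1_KO against control, where all 9 genes were below 0 on the log2 scale under each of the 15 alternatives. The number called lower was 4 to 7 with 1 library left out (4 without control replicate 1) and 3 with the Dkk1_KO libraries summed to 1, against 7, and all genes called were then 3115 against 8018. With limma on log2(TPM + 1) the median of all genes moved to -0.135, and that of the 9 was -1.33 (-0.213 and -1.34 at a pseudocount of 0.1; -0.1 and -1.26 with upper-quartile factors). The share of calls that were higher was then 39.3% and 36.8% at pseudocounts of 1 and 0.1, against 48.1%, and likewise 42.9% and 34.3% against 58.1% in IWP2 against control, 35.6% and 42.7% against 53.3% in IWP2_removed against control, and 16.6% and 17.3% against 40.5% between letters. IWP2 against control (1 member lower, 396 genes) gave 2 members and 1067 genes by DESeq2, 3 and 1220 without a filter, 219 and 178 genes by limma at pseudocounts of 1 and 0.1, 0 members and 1 gene with only these 2 groups, 0 and 12 with the 6 libraries without Dkk1_KO, and 0 to 2 members and 70 to 2432 genes with 1 library left out (129 without control replicate 1, 70 without control replicate 2, 2432 without IWP2 replicate 1, 716 without IWP2 replicate 2). IWP2_removed against control (0 members, 227 genes) gave 1 lower member and 657 genes by DESeq2, 732 without a filter, 104 and 103 by limma, 10 with 2 groups, 1 without Dkk1_KO and 14 to 37 with 1 library left out. IWP2_removed against IWP2 (0 members, 11 genes) gave 1 higher member and 382 genes by DESeq2, 414 without a filter, 5 and 6 by limma, 0 with 2 groups, 1 without Dkk1_KO and 0 to 454 with 1 library left out (395 without IWP2 replicate 1, 454 without IWP2 replicate 2). Letter C against B (3 lower, 0 higher, 1319 genes) gave 1 higher member by DESeq2 and without a filter (2979 genes), 392 and 388 genes by limma, 0 members and 0 genes with Dkk1_KO included, 1 higher member and 2026 genes without the IWP2 line, and 1 lower member and 472 genes without the IWP2_removed line. The causes were not tested. Of 603 values of single members under alternatives 0 changed sign with a call, 31 lost a call and 24 gained one.

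The replicate block, with either the number in the titles or the letter as a term, gave 8 and 9 members lower in Dkk1_KO against control, 2 in IWP2 against control with either, and 148 genes (number) in IWP2_removed against control and 2 and 3 genes in IWP2_removed against IWP2. Changes from replicate 1 to 2 correlated across genes, which are not independent replicates, at 0.387 to 0.57 between the 3 lines without Dkk1_KO and at -0.067 to -0.032 with Dkk1_KO, and the labels do not say that a number marks anything shared. Depth limits the proteoglycans most, with 38 to 86 reads per Dkk1_KO library for Lum and Dcn.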

Other observations

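Genes outside the set whose log2 CPM over all 9 libraries was most like the mean of the 9 were Fkbp10 (Pearson r 0.992), Mmp2 (0.992), Plagl1 (0.988), Tnfrsf19 (0.987) and Ccdc187 (0.987), of 12098 genes averaging 5 CPM or more. These values describe libraries that fall into a Dkk1_KO cluster and the rest. Over the 6 libraries without Dkk1_KO other genes were most like it, among them Eogt (0.991), Gsap (0.99), Pde5a (0.989) and Ddit4l (0.984). Among the members, Acta2 and Tagln varied together over these 6 libraries (r = 0.97), as did Fbn1 and Tagln (0.91), whereas Dcn and Lum, neighbours on the chromosome, did not (r = -0.03). Lum ran against Acta2 (-0.94) and Tagln (-0.91), and the median over the 36 pairs of members was 0.275. These 6 libraries carry the letters B and C, for which the r values were not adjusted. The Dcn and Lum value over all 9 libraries was 0.98.

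The 4 Y-linked genes measured were lower in Dkk1_KO than in control by mean CPM, with Kdm5d at 3.55 CPM in Dkk1_KO, 42.1 CPM in IWP2, 40.2 CPM in IWP2_removed and 41.5 CPM in control. Per member, the gene most like it over 9 libraries was Tyro3 for Dcn (0.997), Zfp866 for Lum (0.998), Gm9027 for Postn (0.983), Cpq for Lox (0.955), Tcim for Fbn1 (0.988), Plcd4 for Thy1 (0.983), Hdx for Acta2 (0.978), Tmem33 for Tagln (0.981) and Dram2 for Pdgfrb (0.944).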
